A study of Homo sapiens with 72 samples.

Results

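The EGR and NR4A early response genes were followed in 3 human B cell lines treated with bryostatin. They comprise 10 of 20033 protein-coding genes, namely the zinc finger factors EGR1, EGR2, EGR3 and EGR4, the orphan nuclear receptors NR4A1, NR4A2 and NR4A3, the EGR corepressor NAB2, the serum response factor SRF and the immediate early gene IER2. The genes were listed by name, with earlier results of these data known, and were located in hg38 with the GENCODE annotation. Peaks of 3 histone marks were taken within 1 kb of each annotated start and over each gene with 3 kb on either side.

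Immediate early genes are switched on within minutes of a signal and need no new protein synthesis. Bryostatin binds the diacylglycerol site of protein kinase C, which feeds the RAF, MEK and ERK kinases. ERK phosphorylates ternary complex factors that sit beside SRF on CArG boxes, and many promoters of this class also bind CREB at cAMP response elements. NAB2 is itself a target of EGR factors and restrains them. H3K4me3 marks active starts, H3K4me2 marks starts and enhancers, and H3K27me3 is laid down by Polycomb over silent or poised genes.

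Cut&Tag places a transposase at an antibody-bound mark, so that the DNA beside it can be amplified and sequenced. Raji (Burkitt lymphoma), NALM6 and REH (both acute lymphocytic leukemia) were left untreated or treated with 1 nM bryostatin, overnight per the labels, and each line, treatment and mark had 3 replicate libraries, 54 in all. All 3 are established lines grown in the same medium. The labels do not say whether replicates came from separate cultures, so p-values measure only the spread between libraries.

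The lines were checked against marker genes by H3K4me3 peaks at their starts. All 6 B lineage markers were marked in all 6 Raji libraries, 4 of 6 in all 6 NALM6 libraries and 5 of 6 in all 6 REH libraries. The mature B cell genes MS4A1 and CR2 were marked in all 6 Raji libraries and in none of NALM6 or REH, and none of 3 T cell genes was marked in any line. Of 3 myeloid genes, CSF1R was marked in 1 REH library. Of the precursor B cell genes DNTT, VPREB1, IGLL1 and RAG1, 1 of 4 (RAG1) was marked in all 6 Raji libraries and 3 of 4 in all 6 libraries of NALM6 and of REH. Their summed H3K4me3 window level in REH was 12.7 to 12.8 untreated and 8.47 to 10.1 with bryostatin, without overlap, and its part in the REH results below was not tested. Depth, read from the steps between coverage values, ran from 5.12 to 47.9 M mapped reads in 48 libraries. In NALM6 the 6 replicate 1 libraries have a signal on another scale and short peaks, with medians between 583 and 916 bp, and their depth is unknown. Replicate 2 of untreated Raji H3K27me3 also stood apart, with a peak at 57.0% of all gene starts and 35.5% of its peaks over H3K4me3 peaks.

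Promoter sequences are shown for the 3 members in which a CArG box was found, because these include both genes with a bryostatin response below. The windows searched were 8 RefSeq promoters and those before the canonical starts of EGR2 and NR4A1, and EGR3 and NR4A2 were not searched here. Each run is the 250 bases before a start, 5′ to 3′ in the direction of the gene, and capitals mark the CArG boxes. EGR1 (chr5:138465229-138465478, plus strand) and SRF (chr6:43171019-43171268, plus strand) are from RefSeq on GRCh38.p14. EGR2 (chr10:62816367-62816616, minus strand) was read from hg38 before its Ensembl canonical start, the start used for all distances here.
EGR1: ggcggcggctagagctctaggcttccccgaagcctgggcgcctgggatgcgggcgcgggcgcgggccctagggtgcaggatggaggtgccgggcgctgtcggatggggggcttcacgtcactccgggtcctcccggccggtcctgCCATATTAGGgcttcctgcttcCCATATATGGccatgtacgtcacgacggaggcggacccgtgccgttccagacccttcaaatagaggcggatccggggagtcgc
SRF: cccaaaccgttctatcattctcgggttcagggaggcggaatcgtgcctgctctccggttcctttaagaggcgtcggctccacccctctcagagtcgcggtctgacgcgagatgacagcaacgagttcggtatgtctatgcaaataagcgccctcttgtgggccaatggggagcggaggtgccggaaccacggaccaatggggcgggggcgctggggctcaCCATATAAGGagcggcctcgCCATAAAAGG
EGR2: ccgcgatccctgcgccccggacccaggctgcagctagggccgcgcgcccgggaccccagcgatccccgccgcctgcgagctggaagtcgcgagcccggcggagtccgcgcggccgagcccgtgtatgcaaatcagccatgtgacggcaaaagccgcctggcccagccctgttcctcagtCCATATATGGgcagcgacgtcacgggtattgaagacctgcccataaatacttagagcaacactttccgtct
EGR1 held 2 CArG boxes, from 105 to 96 and from 83 to 74 bases before the start. SRF held 2, from 30 to 21 and from 10 to 1 bases before its start, and EGR2 held 1, from 71 to 62 bases before its start. In the window from 250 bases before to 50 bases after the start, 1.22% of 15345 promoters held a CArG box on either strand and 0.0391% held 2 or more. RefSeq promoters matched 8 members by symbol, and the entry for EGR2 lies at its outer start and held none. The cAMP response element core TGACG, which also lies inside TGACGTCA, occurred 2 times in EGR1 and EGR4, 4 times in NR4A3, and 1 time in SRF and IER2, against 29.7% of promoters with any. It occurred 2 times before the canonical start of EGR2 and 4 times before that of NR4A1. TGACGTCA (2.64% of promoters), the EGR site GCGTGGGCG (1.09%), the NBRE AAAGGTCA bound by NR4A receptors (0.984%) and the ETS core CCGGAAGT (6.32%) were in none of these member windows.

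Most members already carried active marks before treatment. NAB2, NR4A3, SRF and IER2 had an H3K4me3 peak at a start in all 18 libraries, a pattern shared by 21.8% of protein-coding genes. For H3K4me2, EGR1, EGR3, NAB2, NR4A1, NR4A3, SRF and IER2 had a peak in all 18 libraries, against 17.8% of genes. EGR4 was the exception, with H3K4me2 in all 6 Raji libraries and in none of NALM6 or REH. That contrast occurred in 1.22% of genes for Raji against REH and in 2.69% for Raji against NALM6.

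**Figure D1:**
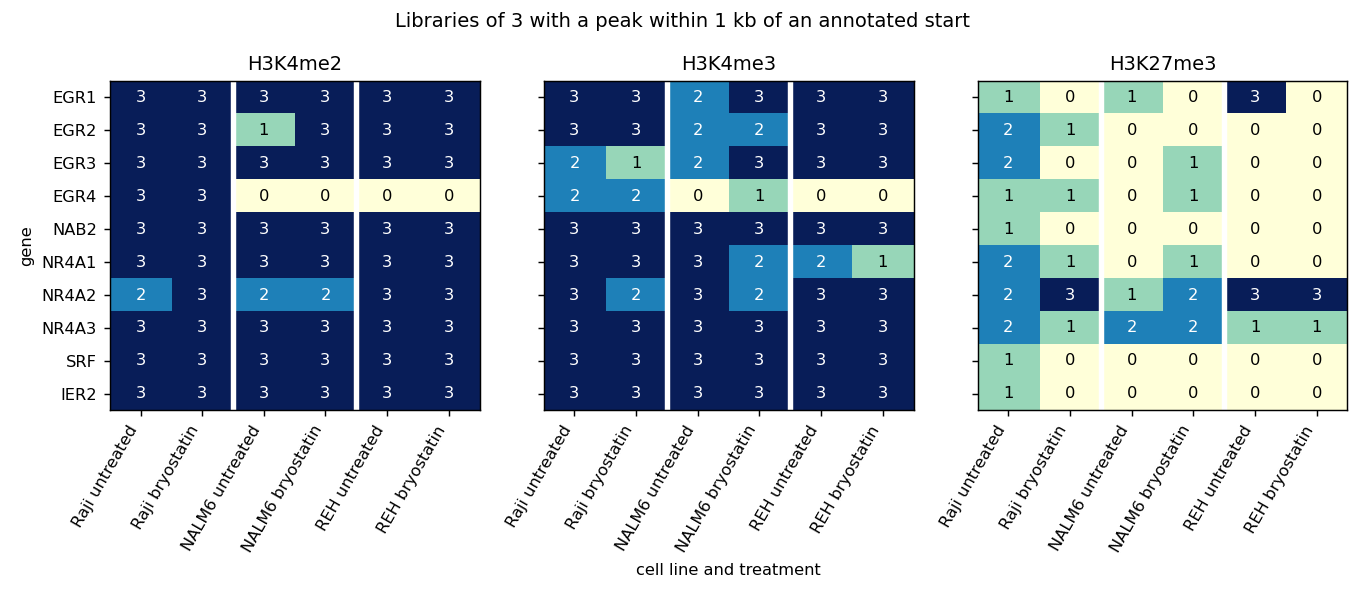
Heat map of how many libraries of 3 had a start peak (1 kb or less from any annotated start), by gene, line and treatment, with 1 panel for each mark. The H3K4 panels are filled for most genes except EGR4 outside Raji, and in the H3K27me3 panel EGR1 goes from 3 untreated REH libraries to 0 with bryostatin.

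The largest called change of a member with bryostatin was at EGR2 in Raji. EGR2 encodes a zinc finger factor known from myelination and lymphocyte development and lies on chr10 from 62811996 to 62819167. Its start region is the merged peak over the canonical start, and its level is the summed signal divided by that library's median region. The H3K4me3 level was 0.157, 0.173 and 0.133 in the untreated libraries and 0.375, 0.631 and 0.669 with bryostatin. Every treated value was above every untreated one, where 5.56% of H3K4me3 gene windows in Raji were higher without overlap. The region rose by 1.82 on the log2 scale (SE 0.24, adjusted p from limma = 0.0279), and it was 1 of 14 regions called among 9040, all of them higher, or 0.155%. Of 7 members tested EGR2 was the only one called. The call was lost without untreated replicate 1 or 3 or treated replicate 2 or 3, with adjusted p between 0.0711 and 0.202, and changes between 1.67 and 1.83. When replicates were blocked by number, 132 regions (1.46%) were called and EGR1 was called too (adjusted p = 0.00593). Without centring the change was 2.07, since the median region itself shifted by 0.25.

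The EGR2 peak was longer on the downstream side of the start. The downstream end of the H3K4me3 peak was 85, 135 and 5 bp past the canonical start in untreated Raji and 2495, 2905 and 2495 bp past it with bryostatin. The upstream end was 2015, 1855 and 1285 bp before the start untreated and 1905, 1995 and 1825 bp before it treated, so the groups overlap on the upstream side. This distance was a measure chosen after the data were seen, and it was fitted for all genes with a peak at the canonical start in all 6 libraries. For the shifts and the shares of genes ending farther without overlap, each library was centred on its median end. The ends printed for single libraries are not centred, so their means can differ by more or less than the shift. The downstream end of EGR2 moved by 2438 bp (SE 146, limma adjusted p = 0.00103), and EGR2 was the only gene called among 9486 (0.0105%). It stayed called with the block, without centring, on a log scale, without the trend and without each library, with adjusted p between 0.000156 and 0.0201.

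The highest H3K4me3 signal at EGR2 in Raji was 217, 343 and 262 RPKM untreated and 411, 444 and 572 RPKM treated. These also did not overlap, but no share over all regions is given for the maximum. The log2 change of the maximum was 0.87 (SE 0.32, adjusted p = 0.956). The mean signal per base had a log2 change of 0.54 (adjusted p = 1.00), and the start region lost its call under both measures. The depth of these libraries was 47.9, 20.1 and 21.0 M reads untreated and 17.0, 27.3 and 13.5 M treated, and these overlap.

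**Figure D2:**
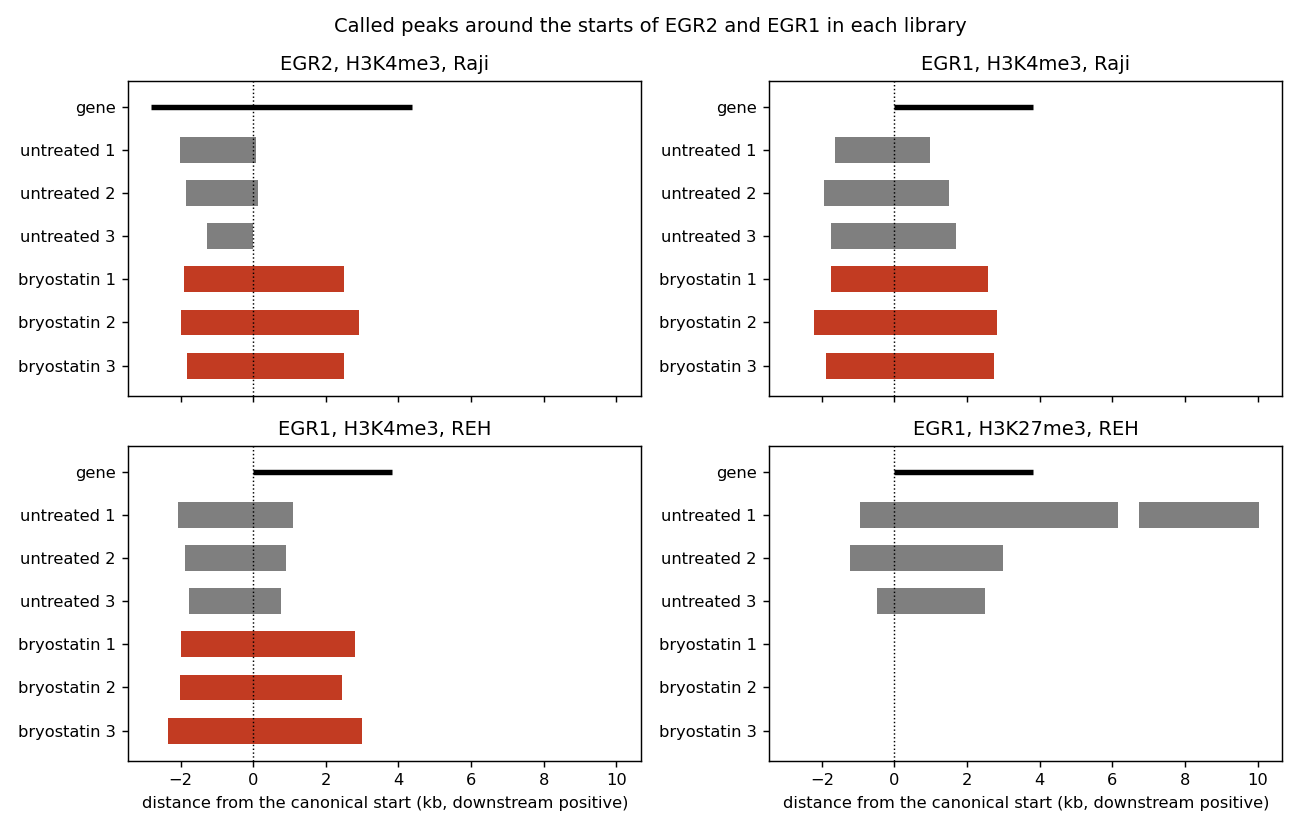
Peaks called in each library around the starts of EGR2 and EGR1, drawn as bars against distance from the canonical start in kb, with untreated libraries in grey, bryostatin in red and the gene as a black line. In the 3 H3K4me3 panels, EGR2 in Raji and EGR1 in Raji and REH, the peaks of all bryostatin libraries end farther downstream than those of all untreated ones, and EGR1 H3K27me3 peaks in REH are drawn for the 3 untreated libraries only.

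H3K4me2 at EGR2 in Raji had levels over the whole gene window of 1.38, 1.20 and 0.992 untreated and 1.69, 1.80 and 1.86 treated. The treated libraries were all higher, a ratio of 1.50 (two-sided exact permutation p = 0.1, the lowest possible with 3 libraries a group), where 6.18% of windows were higher without overlap. The H3K4me2 start region had a log2 change of 0.59 (SE 0.16, adjusted p = 0.397) and was not called. Every treated Raji H3K4me2 library was deeper than every untreated one, and the part of depth in this difference was not tested. In NALM6 an H3K4me2 peak at EGR2 was called in 1 of 3 untreated libraries and in 3 of 3 treated ones. The window levels there were 0, 0 and 0.376 untreated and 0.628, 0.477 and 0.483 treated, which do not overlap. Of windows called in all 6 libraries 4.88% were higher without overlap, but EGR2 is not among these and levels of 0 separate more easily. Without replicate 1 the EGR2 levels were 0 and 0.376 against 0.477 and 0.483. Start peaks were called at 27.5%, 42.2% and 47.1% of genes in the untreated libraries and at 29.2%, 52.0% and 51.3% in the treated ones. The part of this in the EGR2 pattern was not tested, and no share of genes with that pattern is given.

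In REH, EGR2 H3K4me3 levels were 0.497, 0.474 and 0.394 untreated and 0.656, 0.527 and 0.628 treated. These did not overlap either, where 7.57% of H3K4me3 gene windows in REH were higher without overlap. The log2 change of 0.41 (SE 0.12) had an adjusted p of 0.141. The downstream end was at 395, 25 and -705 bp untreated and at 65 bp in all 3 treated libraries, so the lengthening seen in Raji was not seen here. The response in Raji minus that in REH was 1.42 on the log2 scale (SE 0.30), with an adjusted p of 0.160 in the limma interaction test over 6447 regions, of which 5 or 0.0776% were called. None of 6 members was called there (1 with an unadjusted p under 0.05), and none of 8 for H3K4me2 (1 under 0.05), where 0.0275% of regions were. With replicate blocks within each line, where same-numbered H3K4me3 libraries deviated together, the adjusted p was 0.0288. Without replicate 1 of bryostatin-treated Raji it was 0.00352, and without each of the other 11 libraries in turn it ran from 0.174 to 0.549. The difference was 0.23 with the mean signal and 0.68 with the maximum signal (adjusted p = 1.00 each).

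The summed H3K4me3 signal at EGR1 rose in REH. EGR1, the prototype of the EGR factors, lies on chr5 from 138465479 to 138469303. Its H3K4me3 start region level was 1.13, 1.15 and 1.06 in untreated REH and 1.45, 1.31 and 1.43 with bryostatin. The treated libraries were all higher, where 7.57% of H3K4me3 gene windows in REH were higher without overlap. The rise was 0.33 on the log2 scale (SE 0.068, adjusted p from limma = 0.0312). Of 7238 regions 121 or 1.67% were called, 59 of them higher, and EGR1 was the only one called of 8 members tested. The block gave 202 calls (2.79%) and kept EGR1 (adjusted p = 0.0238). It was not called without centring, without the trend, or without any of the 3 treated libraries or untreated replicate 2, with adjusted p up to 0.199 in these.

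The downstream end of H3K4me3 was at 1092, 902 and 752 bp in untreated REH and at 2802, 2432 and 2992 bp with bryostatin. The shift of 1760 bp (SE 169, adjusted p = 0.0290) was 1 of 4 called among 7835 genes, or 0.0511%, and 4.08% ended farther without overlap. The other 3, named after their values were seen, were FOSL2, IFNGR1 and SH2B3. The call was lost without centring, and without untreated replicate 1, untreated replicate 2 or treated replicate 3. The maximum signal was 1744, 1641 and 1720 RPKM untreated and 1651, 1662 and 1544 RPKM treated, which overlap, and its log2 change was -0.08 (adjusted p = 0.920). The mean signal per base was 520, 569 and 511 RPKM untreated and 428, 411 and 375 RPKM treated. Every treated mean was below every untreated one, and no share over all regions is given for this measure. The log2 change of the mean signal was -0.38 (adjusted p = 0.956), so the sign of the change depends on whether the summed signal is used.

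H3K27me3 at EGR1 in REH went the other way. A peak covered the start in all 3 untreated libraries and in none of the 3 treated ones, a pattern found at 4 of 20033 genes, or 0.02%, the others being FCGRT, NFATC1 and SLC45A3 (named after their values were seen). The untreated peaks ran from 938 bp before to 6152 bp after the start, from 1228 bp before to 2992 bp after it, and from 478 bp before to 2482 bp after it. The treated H3K4me3 peaks ended between 2432 and 2992 bp after the start. The window levels were 0.796, 0.480 and 0.872 untreated and 0 in all treated libraries, with mean signals of 29.5, 35.0 and 65.9 RPKM in the untreated peaks. The pattern held with windows of 500 bp and 2 kb, with the canonical start alone, with at least 200 bp of overlap and with an equal number of peaks from each library. The 3 untreated libraries had 38.9, 32.5 and 15.2 M reads and the treated ones 22.4, 24.5 and 32.4 M. The depths overlap, and a signal below the peak caller's threshold cannot be told from none. No region at EGR1 could be fitted for this mark, and H3K27me3 windows in REH leaned downward in general, with 7.92% lower without overlap and 1.23% higher.

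In Raji, EGR1 H3K4me3 levels were 0.626, 0.706 and 0.848 untreated and 0.884, 1.42 and 1.52 treated. The groups did not overlap, where 5.56% of H3K4me3 gene windows in Raji were higher without overlap. The log2 change was 0.78 (SE 0.20) and the adjusted p was 0.462. The downstream end was at 992, 1502 and 1692 bp untreated and at 2572, 2812 and 2752 bp treated, a shift of 1198 bp (SE 183) that was not called (adjusted p = 0.282), where 3.56% of genes ended farther without overlap. In NALM6 an H3K4me3 peak at EGR1 was called in all but 1 untreated library, and the window levels were 0, 0.712 and 0.652 untreated and 0.331, 1.15 and 1.01 treated. With all NALM6 libraries these groups overlap. Without replicate 1 the treated ones were both higher, but 2 libraries against 2 separate more easily, and no share over all genes is given for that. The H3K4me2 peak of EGR1 in NALM6 ended at 1522 and 982 bp in untreated replicates 2 and 3 and at 3412 and 4772 bp in the treated ones, a shift of 2402 bp (SE 496, adjusted p = 0.242) with replicate 1 left out. In replicate 1 it ended at -585 bp untreated and at -847 bp treated. With all libraries the groups overlapped, the shift was 1523 bp (SE 785, adjusted p = 1.00) and 0% of 3648 genes were called.

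**Figure D3:**
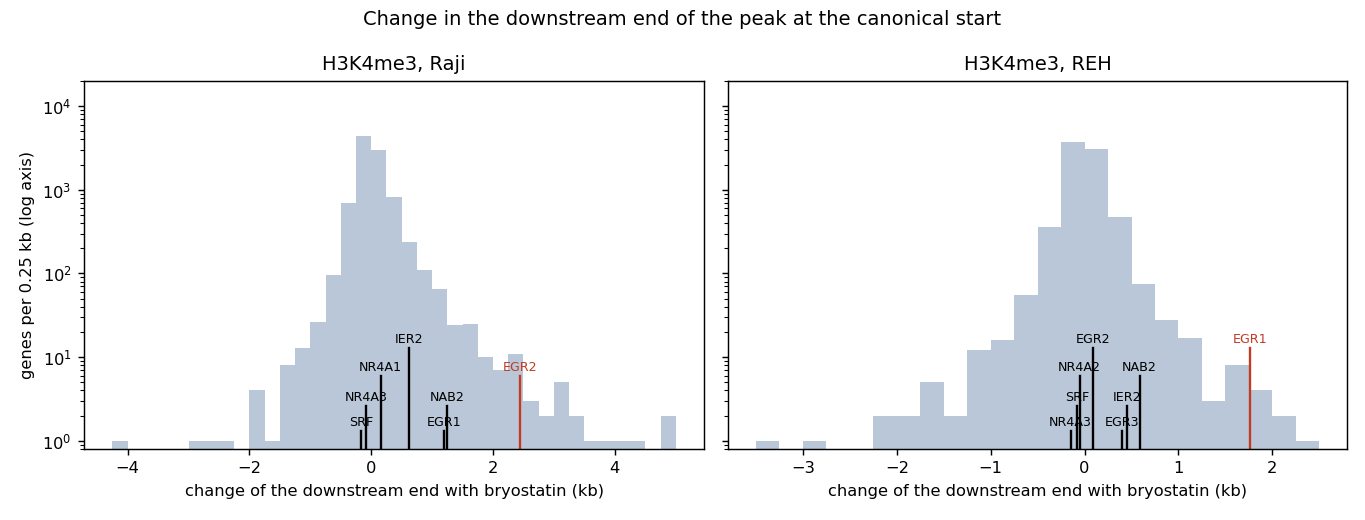
Histograms of the change in the downstream end of the H3K4me3 peak with bryostatin, in kb, over all genes tested in Raji and REH on a log axis, with changes past 5 kb drawn in the last bin. Ends were centred on the median end of each library. Lines mark the members, in red where the adjusted p is under 0.05, and EGR2 in Raji (2438 bp) and EGR1 in REH (1760 bp) lie in the right tail.

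No other shift of a member was called, for either H3K4 mark. After centring, the REH H3K4me2 peaks of EGR1, EGR2, EGR3, NR4A1 and IER2 ended farther downstream in all treated than in all untreated libraries. Of 9252 genes 5.19% did so, and 8.32% did so without centring. EGR3 ended at 649, 749 and 449 bp untreated and at 1709, 2529 and 2899 bp treated, a shift of 1654 bp (SE 287, adjusted p = 0.286). EGR2 had a shift of 2104 bp (SE 384, adjusted p = 0.319). None of 9 members was called for H3K4me2 in REH, where 10 genes (0.108%) were. In Raji the NAB2 H3K4me2 peak ended at 1317, 1867 and 2357 bp untreated and at 6437, 6007 and 6117 bp treated, a shift of 3636 bp (SE 753, adjusted p = 0.582). No gene (0%) was called there. After centring 3.85% of genes ended farther without overlap, and without centring 16.7% did. Every treated library here was also deeper than every untreated one, and the part of depth was not tested. The starts of NEMP1 and STAT6 lie in the window of NAB2, that of NEMP1 within 2 kb of a NAB2 start, so the added peak cannot be assigned to 1 gene.

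EGR3, a paralogue of EGR2, had no called response. Its H3K4me2 window levels in REH were 4.06, 4.58 and 4.41 untreated and 3.72, 4.13 and 4.41 treated, which overlap. In Raji H3K4me3 peaks at EGR3 were found in 2 of 3 untreated libraries and 1 of 3 treated ones. H3K27me3 peaks at its start were seen in 2 untreated Raji libraries and 1 treated NALM6 library, and in none of REH. EGR4 in Raji had H3K4me2 window levels of 0.440, 0.584 and 0.449 untreated and 0.347, 0.406 and 0.525 treated, with overlap and a log2 change of -0.21 (SE 0.23, adjusted p = 0.834).

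NAB2 had slightly higher H3K4me3 windows with bryostatin in Raji and REH. The levels were 2.26, 2.21 and 2.18 untreated and 2.32, 2.73 and 2.52 treated in Raji, a ratio of 1.14, and 1.79, 1.79 and 1.79 against 1.88, 1.91 and 2.05 in REH, a ratio of 1.08. Neither pair overlaps (exact p = 0.1 each), and the start regions were not called (adjusted p = 0.885 and 0.541). Of members with a window in all 6 libraries, 3 of 7 in Raji (EGR1, EGR2 and NAB2) and 3 of 8 in REH (the same 3) had higher H3K4me3 windows without overlap and none had lower ones. The shares over all genes were 5.56% higher in Raji and 7.57% in REH. SRF and IER2 had no such H3K4me3 difference in either line. The window of NAB2 also holds the starts of NEMP1 and STAT6, that of SRF the start of CUL9, and that of IER2 the start of STX10.

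IER2, a short-lived nuclear regulator, had the longest start peaks of the set. The start of STX10 lies within 2 kb of an IER2 start, so the length and level of these peaks cannot be assigned to 1 gene. For H3K4me3 its peak length lay at the 99.4th to 99.9th percentile of genes with a start peak, and in untreated Raji it averaged 8603 bp ± 816 (SD, n = 3), where the median gene had 2497 bp. NR4A3 lay between the 92.5th and 98.9th percentile and NAB2 between the 92.6th and 98.0th. EGR2 in Raji went from the 17.8th percentile untreated to the 89.7th with bryostatin. In NALM6 the IER2 H3K4me3 levels were 2.36, 3.36 and 3.26 untreated and 4.51, 4.12 and 4.81 treated. The treated ones were all higher, also without replicate 1. The ratio was 1.50, where 2.21% of windows were higher without overlap, but the start region was not called (log2 change 0.60, SE 0.22, adjusted p = 1.00).

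**Figure D4:**
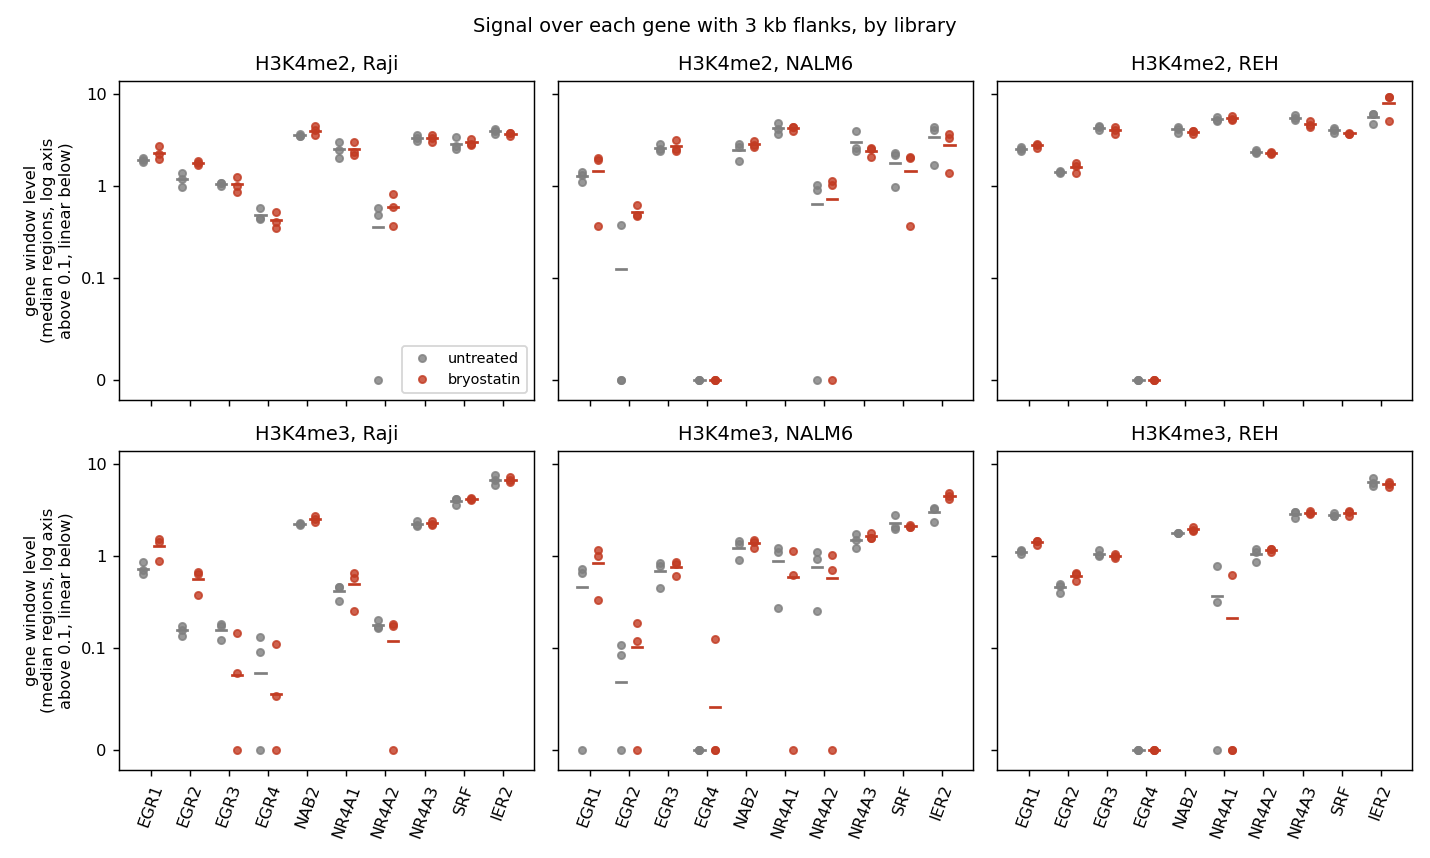
Signal over each gene with 3 kb flanks in every H3K4me2 and H3K4me3 library, in multiples of the library's median region (log axis above 0.1, linear below), with untreated libraries in grey, bryostatin in red and bars at the means. EGR2 H3K4me3 in Raji goes from between 0.133 and 0.173 to between 0.375 and 0.669, and for SRF in Raji the 2 groups overlap.

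The NR4A receptors, which bind DNA without a known ligand, had no called response where they could be tested. NR4A3 H3K4me2 in REH was 5.30, 5.52 and 5.94 untreated and 4.62, 4.44 and 5.12 treated over the gene window. The treated libraries were all lower, a ratio of 0.846 where 6.32% of windows were lower without overlap, and the start region had a log2 change of -0.24 (SE 0.092, adjusted p = 0.353). In Raji its H3K4me3 levels of 2.42, 2.14 and 2.10 untreated and 2.38, 2.18 and 2.23 treated overlap. A second start of NR4A3, 4.84 kb inside the gene, had H3K4me2 in all 6 REH libraries and in none of Raji or NALM6.

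NR4A1 has 19 annotated starts in 7 clusters, and the lines differed in which were marked. Relative to the canonical start, those at -28.6 kb and from -14.3 to -13.7 kb carried H3K4me2 in all 6 libraries of NALM6 and of REH. In Raji the first did so in 4 of 6 libraries and the second in none. Those at -9.64 kb and from -8.02 to -7.60 kb had H3K4me2 in all 6 Raji libraries, in 3 of 6 NALM6 libraries and in 2 of 6 REH libraries, both treated. H3K4me3 at the canonical start was present in all 6 Raji libraries and in 2 of 6 REH libraries.

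NR4A2 carried both H3K4me3 and H3K27me3 at its starts in all 6 REH libraries. Both marks were present in 3 of 3 untreated REH libraries at 254 genes (1.27%), among them EGR1 and NR4A2, and in 3 of 3 treated ones at 240 genes (1.2%), of the members NR4A2 alone. Its H3K27me3 window levels in REH were 0.882, 1.01 and 1.97 untreated and 0.817, 0.653 and 0.880 treated. The groups are just separate, with 0.882 against 0.880 at their edges, a ratio of 0.608 (exact p = 0.1). Of REH windows for this mark 7.92% were lower without overlap and 1.23% higher, with a median ratio of 0.872. The start region had a log2 change of -0.64 (SE 0.34, adjusted p = 1.00). In Raji the canonical start of NR4A2 had no H3K4me3 in any library, while the start at -9.63 kb had it in 5 of 6.

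In untreated Raji 15 of 30 gene and library pairs had an H3K27me3 peak at a start, and 6 of 20 without replicate 2, the library that stood apart. With bryostatin 7 of 30 had one. Replicate 2 was the only source of H3K27me3 peaks at EGR1, NAB2, SRF and IER2 in Raji. With equal numbers of peaks from each library 2 of 30 pairs remained. Outside Raji, NR4A3 had an H3K27me3 peak in 2 of 3 untreated and 2 of 3 treated NALM6 libraries and in 1 of 3 of each in REH. In REH no member other than EGR1, NR4A2 and NR4A3 had one in any library.

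No member was called by limma for H3K4me2 in Raji (9 tested, 1 with an unadjusted p under 0.05, 0% of regions called) or in REH (9 tested, 2 under 0.05, 1.45% of regions called, 2.83% with the replicate block). The same was true in NALM6 for H3K4me2 (6 tested, 0 under 0.05, 0% of regions) and H3K4me3 (5 tested, 1 under 0.05, 0% of regions). For H3K27me3 only NR4A2 in REH could be tested, and it was not called (0 under 0.05, 0% of regions). In simulated data with known changes the REH fit recovered 99% of log2 changes of 0.5 for H3K4me3 over 7238 regions. The Raji fit recovered 40% of changes of 0.5 and 94% of changes of 1 over 9040 regions, and the NALM6 fit 1% of changes of 1 over 3838 regions, so a change of that size would mostly be missed in NALM6. The simulated H3K4me3 data gave 144 calls in Raji and 218 in REH, where the real data gave 14 and 121. More calls loosen the Benjamini-Hochberg cut, so these shares can overstate what the fits would recover in the real data. They are also averages over regions and not the power at a single member. For H3K4me3 in REH the SE was 0.068 at EGR1 and 0.12 at EGR2.

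Genes upstream of these promoters, partner genes and other immediate early genes were tested in the same fits. None of 18 kinases, ternary complex factors, SRF cofactors and CREB factors of the route from ERK to these promoters was called after bryostatin, with 17 tested in Raji and 16 in REH for H3K4me3, and none of 4 corepressor and partner genes of EGR and NR4A factors (NAB1 and the RXR genes) was. Among 32 other immediate early genes 26 were tested in Raji for H3K4me3, and 3 rose. Of all H3K4me3 regions 0.155% were called in Raji and 1.67% in REH. FOS, a subunit of AP-1, rose by 1.51 on the log2 scale (SE 0.22, adjusted p = 0.0288). PPP1R15A, a stress-induced phosphatase subunit, rose by 1.09 (SE 0.15, adjusted p = 0.0279), and CD69, an early activation antigen of lymphocytes, by 1.05 (SE 0.15, adjusted p = 0.0279). In REH 4 of 24 rose and 2 fell, with ZFP36L1, an RNA decay factor, at 0.70 (SE 0.092, adjusted p = 0.00209), FOS at 0.67 (SE 0.072, adjusted p = 0.00057) and the small GTPase gene RHOB at -0.56 (SE 0.075, adjusted p = 0.00211). The median log2 change of the list was 0.12 in Raji and -0.05 in REH, where the median of all regions was -0.01 and -0.00. Among the members tested the medians were 0.16 and 0.09.

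Without bryostatin the lines differed at several members. The largest difference was at EGR3 (chr8 from 22687659 to 22693480). Its H3K4me3 start region level was 0.0947, 0.145 and 0.137 in Raji and 0.993, 1.15 and 1.01 in REH. The Raji signal lay upstream of the canonical start, in a region merged over both lines. Untreated Raji replicate 1 had no H3K4me3 peak within 1 kb of that start, and those of replicates 2 and 3 ended at -931 and -991 bp. The Raji H3K4me2 peaks ended at -931, -881 and -111 bp. All REH libraries were higher, with a log2 difference of -3.09 for Raji minus REH (SE 0.18, adjusted p from limma = 1.45e-06). For H3K4me2 the levels were 1.05, 1.04 and 0.990 in Raji and 4.05, 4.56 and 4.35 in REH, a difference of -2.07 (SE 0.11, adjusted p = 7.69e-09). EGR3 was also lower in Raji than in NALM6, with differences of -2.95 for H3K4me3 (SE 0.27, adjusted p = 5.34e-04) and -1.84 for H3K4me2 (SE 0.17, adjusted p = 4.44e-04). Without replicate 1 of NALM6 these were -3.25 (SE 0.21, adjusted p = 6.69e-06) and -1.82 (SE 0.13, adjusted p = 1.48e-06). The comparisons between lines share libraries and are not independent.

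For H3K4me3, 5 of 7 members tested differed between Raji and REH, where 51.3% of 6729 regions did. EGR2 was lower in Raji with a difference of -1.88 (SE 0.19, adjusted p = 3.18e-05), EGR1 with -0.94 (SE 0.12, adjusted p = 1.80e-04) and NR4A3 with -0.68 (SE 0.091, adjusted p = 2.01e-04). SRF was higher in Raji by 0.28 (SE 0.086, adjusted p = 0.0239), while NAB2 (-0.01) and IER2 (-0.24) were not called. For H3K4me2, 6 of 8 were called, where 46.8% of 7999 regions were. NR4A3 (-0.78), IER2 (-0.56), SRF (-0.50) and EGR1 (-0.45) were lower in Raji and NR4A1 higher (0.39), and SRF thus differed in opposite directions in the 2 H3K4 marks. The difference of NR4A1 became -0.17 with the maximum signal and -0.14 with the mean signal. The medians over the members tested were -0.68 for H3K4me3 and -0.47 for H3K4me2, and over all regions -0.02 and 0.00.

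**Figure D5:**
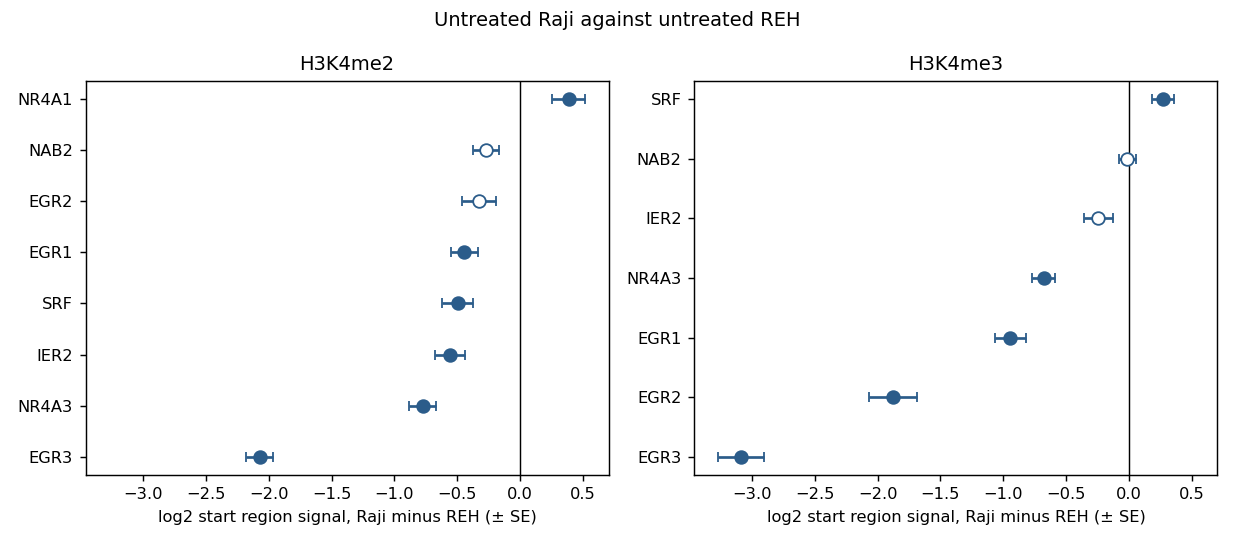
Difference in start region signal between untreated Raji and untreated REH on the log2 scale for the members tested, with SE as bars and filled points where the adjusted p is under 0.05. EGR3 lies farthest left for both marks, at -2.07 and -3.09, and SRF lies left of 0 for H3K4me2 and right of it for H3K4me3.

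Against NALM6, EGR3 was the only one of 6 members called for H3K4me2 and of 5 for H3K4me3 in Raji, where 18.9% and 20.2% of regions were. Between NALM6 and REH none of 6 (1 with an unadjusted p under 0.05) and none of 5 members (2 under 0.05) was called, where 11.4% and 7.15% of regions were. Without replicate 1 of NALM6, 4 of 8 members were called between NALM6 and REH for H3K4me2, where 2730 of 8075 regions were, and 3 of 8 for H3K4me3, where 3147 of 7033 were. NR4A2 was then lower in NALM6 than in REH with a difference of -1.20 for H3K4me2 (SE 0.11, adjusted p = 3.56e-07) and EGR2 with -1.66 for H3K4me3 (SE 0.15, adjusted p = 7.20e-06). EGR1 was then lower in Raji than in NALM6 with a difference of -0.78 for H3K4me3 (SE 0.15, adjusted p = 0.00290), where 3861 of 8556 regions were called. Before centring the median region itself differed by -0.25 and -0.20 between Raji and REH for H3K4me2 and H3K4me3, by 1.19 and 1.14 between Raji and NALM6, and by -1.46 and -1.33 between NALM6 and REH.

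The genes whose pattern over the 18 group means of line, treatment and mark was most like a member were found by Pearson's r of log2 start signal (with 0.1 added), with each mark's mean removed, over 17445 genes, for the 3 members whose values varied most. For NR4A2 these were NFIC (r = 0.951), LHX4 (0.934) and SPHK1 (0.908). For EGR3 they were SYNE3 (0.945), FADS1 (0.944) and PRRT1 (0.943), and for EGR2 MAD2L1BP (0.955), GTPBP2 (0.952) and MOAP1 (0.944). The 18 points share libraries and peak calling, and the correlations are descriptions.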

How the data were processed

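The 54 Cut&Tag libraries were analysed from the peaks that the authors called in each library separately. Per the labels and the study's methods, reads were trimmed with Trim Galore, aligned to hg38 with Bowtie2, normalized by RPKM and called with SEACR. The deposited signal of a peak is the coverage summed over its bases, and its maximum, as the authors computed them. The scale of the 6 libraries of NALM6 replicate 1 is not given in the sources used here. Depth was unknown there.

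Starts and genes were taken from GENCODE 44. Peaks of the libraries compared were merged where they overlapped by 1 bp, and regions called in all of them were fitted as log2 summed signal, centred on the library median, with limma 3.58.1 (lmFit, eBayes with trend, Benjamini-Hochberg adjustment at 0.05 over all regions) in R 4.3.3. Gene windows were compared by exact permutation tests (two-sided). The distance of peak ends was added after seeing the data, and was centred on the library median for its fits and shares. The fits were tested on simulated data. Tables were handled with pandas 2.3.3 and drawn with matplotlib 3.10.9.

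All 10 members are named. They, the other gene lists and the tests were chosen with earlier results of these data known. From each list at most 3 genes of largest change among those called without overlap are named, and a gene outside this rule is said to be chosen after its values were seen. Replicate numbers come from the labels. Libraries with 1 number deviated together, in all pairs, for H3K4me3 in Raji (r from 0.482 to 0.540), H3K4me2 and H3K4me3 in REH (0.131 to 0.311) and all marks in NALM6 (0.402 to 0.676), where replicate 1 stood against the other 2. They did not for the other marks or between lines. Alternatives were other signal measures, scalings, filters, windows and overlaps, the block, no trend and each library left out. The 18 IgG samples were not used here.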

Additional observations from a re-analysis of the deposited data

How the results depend on the processing

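With the main settings the number of members called after bryostatin was 0 for every line and mark except H3K4me3 in Raji and in REH. A count of 0 cannot fall, and no member could be tested for H3K27me3 in Raji or NALM6, so unmoved counts there say little. EGR2 in Raji was called in 7 of 14 alternatives and EGR1 in REH in 7 of 15. For H3K4me3 in Raji the count went from 1 to 0 with the maximum signal, with the mean signal per base, with the upper 0.5 of regions by signal and with no trend, and to 2 with the replicate block. For H3K4me3 in REH it went from 1 to 0 with the maximum signal, the mean signal, no centring and no trend. Leaving out single libraries gave 0 to 1 calls in both. In Raji the call was lost without untreated replicate 1 or 3 or treated replicate 2 or 3. For the interaction in H3K4me3 the count went from 0 to 1 with the replicate block within line, and was 0 to 1 with libraries left out. The block was also run where the numbers do not pair the libraries, and no other count of members moved by over 1.5 times under it. The shift of the downstream end in REH H3K4me3 gave 0 calls with no centring and 0 to 1 with libraries left out. For H3K4me2 this count was 0 to 1 in Raji, NALM6 and REH with libraries left out, where it was 0 otherwise.

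The sign turned in a few cases. The log2 change of EGR1 in REH H3K4me3 was -0.0794 with the maximum and -0.38 with the mean signal, and that of NR4A1 for Raji against REH H3K4me2 was -0.17 and -0.14. With the maximum signal, gene window ratios fell below 1 for EGR2 in Raji H3K4me2 (0.910), EGR1 in Raji H3K4me3 (0.944) and EGR1 in REH H3K4me3 (0.952). By construction the maximum leaves out peak length, and the mean signal divides by it, so added length of low signal lowers the mean. Another 121 sign changes were in fits where neither value was called.

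With regions called in 2 of 3 libraries of each group, NALM6 against REH gave 1 call for H3K4me2 and 2 for H3K4me3, where all 3 libraries gave 0, and with libraries left out 0 to 4 and 0 to 3. With that filter Raji against NALM6 gave 2 calls for each H3K4 mark and 1 for H3K27me3, and 0 for both H3K4 marks with no centring. For H3K4me2 it gave 2 with the mean signal and 1 to 2 with libraries left out, and for H3K4me3 0 with the upper 0.5 of regions and 1 to 3 with libraries left out. The highest of these counts were those without replicate 1 of NALM6. Raji against REH went from 5 to 3 calls for H3K4me3 with the mean signal and to 2 with the upper 0.5 of regions, and for H3K27me3 gave 0 to 1 with libraries left out.

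With equal numbers of peaks per library, member start peaks went from 28 to 18 of 30 pairs for untreated Raji H3K4me3, from 15 to 2 and from 7 to 0 for untreated and treated Raji H3K27me3, and from 4 to 0 and 7 to 0 for NALM6 H3K27me3. Untreated NALM6 H3K27me3 had 7 with a window of 2 kb, and untreated Raji H3K27me3 had 6 of 20 without replicate 2. Windows without overlap went from 3 to 6 for H3K4me2 with no scaling, from 7 to 4 for H3K4me3 with the maximum signal, and from 2 to 1 for H3K27me3 with the maximum signal and with no scaling. With libraries left out they were 3 to 7 for H3K4me2 and 2 to 8 for H3K27me3, where 2 libraries against 3 separate more easily. Where a cause is not named it was not tested. With 3 libraries a group, exact tests cannot go below 0.1, and a peak missed at low depth is not an absent mark.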
